A study of Homo sapiens with 6 samples.

Results

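The miR-424/miR-503 and miR-450/miR-542 cluster is a run of miRNA hairpins on the X chromosome, and its 7 mature products were followed here out of the 1596 mature miRNAs counted in small RNA libraries of melanoma cells. They were chosen by name: hsa-miR-424-5p, hsa-miR-424-3p, hsa-miR-503-5p, hsa-miR-542-3p, hsa-miR-542-5p, hsa-miR-450a-5p and hsa-miR-450b-5p. All 7 had reads in every library. The cells carried the label A2058, an established human melanoma line, and had been treated for 24 h with RSL3 plus IFN-γ (3 libraries) or with RSL3 alone (3 libraries). RSL3, which inactivates the lipid peroxide-clearing enzyme GPX4, was therefore present in both groups, and IFN-γ, a cytokine of activated T cells, was the only labelled difference. No untreated library was analysed here, and the text of the study names another melanoma line, A375, for this sequencing. Since nothing says that the libraries of a group came from separate cultures, every p-value here is set by how far these libraries lie apart, and that spread may be technical.

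A miRNA hairpin is cut into a short duplex whose 2 strands, named 5p and 3p after the arm they come from, can each be loaded into an Argonaute protein. Bases 2 to 8 of the loaded strand, the seed, pair with target mRNAs, so that miRNAs with one seed share many targets. miR-424-5p and miR-503-5p belong to the extended miR-15/16 family, which is known for holding back cell cycle genes such as cyclin D1 and cyclin E1, and in mouse the ortholog of miR-424 is called miR-322. miR-542-3p has been described as a repressor of survivin, an inhibitor of apoptosis. The hairpins lie on one strand, in and downstream of MIR503HG, a long noncoding RNA also known as H19X, and clusters of this kind are commonly made from one primary transcript.

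On GRCh38 with GENCODE 29 the hairpins lay on the minus strand of chromosome X and spanned 6527 bases. MIR424 (134546614 to 134546711) overlapped an exon of MIR503HG and MIR503 (134546328 to 134546398) lay in an intron of it. MIR542 (134541341 to 134541437), MIR450A2 (134540508 to 134540607), MIR450A1 (134540341 to 134540431) and MIR450B (134540185 to 134540262) lay outside the annotated MIR503HG (134543337 to 134546632). Measured from the 5′ end of MIR424 the starts of the next hairpins were thus 313 bases away for MIR503, 5274 bases for MIR542 and 6449 bases for MIR450B. The cluster therefore had a near group, MIR424 and MIR503, and a far group with MIR542 and the MIR450 hairpins.

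The mature sequences are shown because the members fall into groups by seed and differ widely in base composition, with which fold changes in these libraries moved. They are RefSeq sequences (GRCh38.p14), written 5′ to 3′ with the seed in capitals, and miR-16-5p and miR-15a-5p are added as relatives encoded on other chromosomes.
hsa-miR-424-5p: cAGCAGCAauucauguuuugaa
hsa-miR-503-5p: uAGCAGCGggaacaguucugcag
hsa-miR-16-5p: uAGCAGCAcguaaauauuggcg
hsa-miR-15a-5p: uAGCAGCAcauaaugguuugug
hsa-miR-424-3p: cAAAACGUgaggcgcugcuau
hsa-miR-542-5p: uCGGGGAUcaucaugucacgaga
hsa-miR-450a-5p: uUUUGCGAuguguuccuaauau
hsa-miR-450b-5p: uUUUGCAAuauguuccugaaua

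miR-424-5p had the same bases 2 to 8 as miR-16-5p and miR-15a-5p, while miR-503-5p shared AGCAGC at bases 2 to 7 and differed in the last seed base. miR-450a-5p came out identical from MIR450A1 and MIR450A2, so its reads could not be assigned to either hairpin. It differed from miR-450b-5p at 6 of 22 bases, counted from 1 at the 5′ end of miR-450a-5p (G7A, G10A, A18G, U20A, A21U and U22A), of which G7A lies in the seed. The GC content was 27.3% for miR-450b-5p, 31.8% for miR-450a-5p and 36.4% for miR-424-5p, against 52.2% for miR-542-5p, 52.4% for miR-424-3p and 56.5% for miR-503-5p. The authors' treatment of reads that match more than 1 miRNA was not stated in the sources used here. Some paired entries, such as miR-365a-3p and miR-365b-3p, had the same log2 fold change (-1.23) and SE (0.349). The deposited counts summed to 1.09, 1.15 and 1.16 times the totals behind the authors' normalized signal in RSL3 + IFN-γ libraries. In RSL3 libraries the factors were 1.04, 1.03 and 1.13. Reads may thus stand in more than 1 entry, which was not tested.

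The libraries held 4383940, 4404760 and 5367150 counts in the RSL3 + IFN-γ group and 5887471, 4897890 and 6513382 counts in the RSL3 group. Levels are given as counts per 1000000 reads (CPM) after scaling by TMM (trimmed mean of M values), a scaling of each library that assumes most miRNAs do not change, with factors of 0.944 to 1.33 in the RSL3 + IFN-γ group and 0.861 to 0.913 in the RSL3 group. The 6 melanocyte and melanoma markers summed to 94474 to 148169 CPM in RSL3 + IFN-γ libraries and 86129 to 116130 CPM in RSL3 libraries, nearly all of it miR-146a-5p. miR-211-5p, of the melanocyte lineage, stood at 286 to 388 CPM against 270 to 318 CPM. Of the X-linked miR-506 family, miR-514a-3p had 14.5, 28.2 and 30.4 CPM in RSL3 + IFN-γ libraries and 65.3, 50.1 and 76.0 CPM in RSL3 libraries, and fell (log2 fold change -1.38, SE 0.319, edgeR adjusted p = 0.0374). miR-506-3p, miR-508-3p and miR-509-3p were at or near 0, with at most 0.683 CPM in an RSL3 + IFN-γ library and 2.98 CPM in an RSL3 library. Markers of other cell types had reads in both groups. The 2 endothelial markers summed to 323 to 588 CPM against 533 to 751 CPM, the 5 blood markers to 84.4 to 332 CPM against 98.9 to 166 CPM, and the 4 epithelial markers to 81.5 to 102 CPM against 87.5 to 130 CPM. The 3 muscle markers summed to 204 to 278 CPM against 178 to 1334 CPM and the liver marker stood at 68.3 to 174 CPM against 29.1 to 90.4 CPM, each with RSL3 + IFN-γ first, and the part of these in any result was not tested.

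None of the members was called between the groups. Of the 7 members, 6 passed edgeR's filter on low counts and were tested, and 0 rose and 0 fell at an adjusted p under 0.05 (edgeR quasi-likelihood test, adjusted over 758 miRNAs), where 36 of all 758 miRNAs were called (4.75%). DESeq2 and limma also called 0 members, where they called 95 and 51 of all 758 miRNAs. At an unadjusted p under 0.05 edgeR gave 1 member, miR-450a-5p, against 25.9% of all tested miRNAs. DESeq2 gave 2 members and limma 1 at that threshold, against 195 and 200 of all 758 miRNAs. The levels of the 2 groups overlapped for all 7 members, whereas they did not overlap for 29.8% of the tested miRNAs. The median log2 fold change was -0.22 over the 6 members and -0.04 over all tested miRNAs, and 4 of the 6 were negative. Taking same-numbered libraries as pairs, miR-450a-5p, miR-450b-5p and miR-542-3p were lower with RSL3 + IFN-γ in 3 of 3 pairs, as were 24.1% of all tested miRNAs. miR-424-3p and miR-542-5p were lower in 2 pairs and miR-424-5p and miR-503-5p in 1. In such bulk libraries fewer cells with a miRNA and less of it per cell cannot be told apart.

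**Figure D1:**
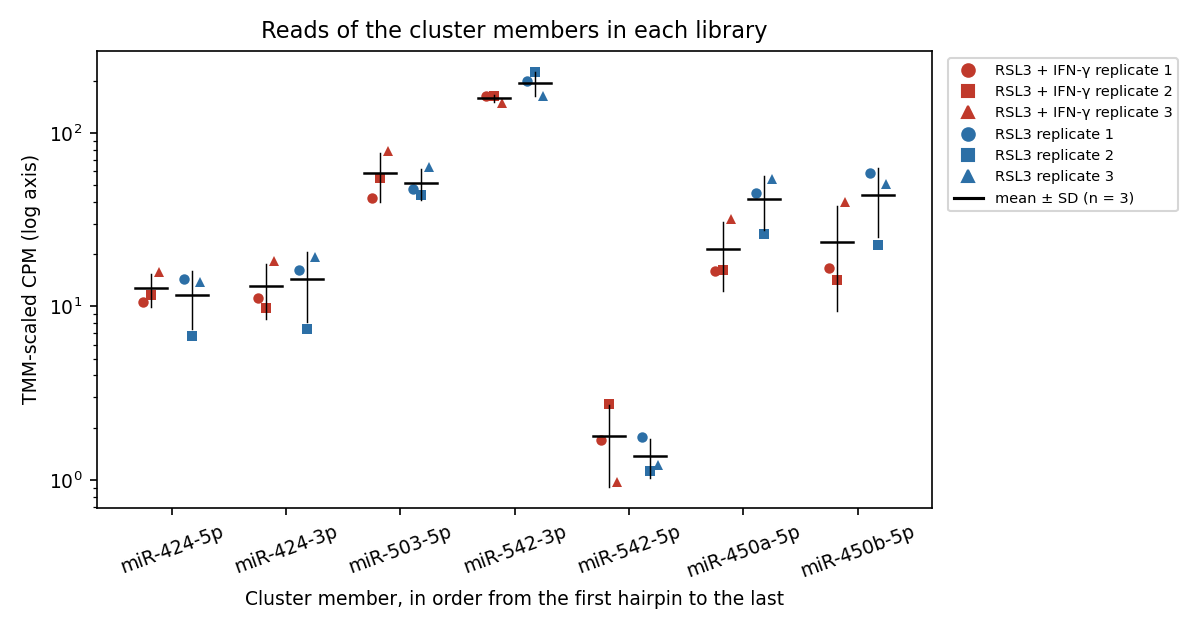
TMM-scaled CPM (log axis) of each cluster member in each library, with RSL3 + IFN-γ left of RSL3, and with the mean and SD of each group (n = 3) as lines. The groups overlap for every member; miR-542-3p is highest and miR-542-5p lowest, and the 2 miR-450 products are low in RSL3 + IFN-γ replicates 1 and 2 and in RSL3 replicate 2.

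The miR-450 products showed the lowest fold changes of the cluster. miR-450a-5p had 16, 16.2 and 32.0 CPM (66, 95 and 198 reads) in the RSL3 + IFN-γ libraries and 44.8, 26.2 and 54.3 CPM (227, 117 and 310 reads) in the RSL3 libraries. The groups crossed only at RSL3 + IFN-γ replicate 3 and RSL3 replicate 2. Its means were 21.4 ± 9.17 CPM and 41.7 ± 14.3 CPM (SD, n = 3 each). The log2 fold change was -0.96 (SE 0.366), with an unadjusted edgeR p of 0.0246 and an adjusted p of 0.141. DESeq2 gave -0.94 with an adjusted p of 0.088, and over all alternatives the adjusted p ran between 0.0467 and 0.594. The lower end came without a filter on low counts, where miR-450a-5p was the 1 member called.

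miR-450b-5p, its close relative from the last hairpin, had 16.7, 14.2 and 39.9 CPM (69, 83 and 247 reads) in the RSL3 + IFN-γ libraries and 58.6, 22.6 and 50.9 CPM (297, 101 and 291 reads) in the RSL3 libraries. The same libraries were low as for miR-450a-5p, and RSL3 + IFN-γ replicate 3 lay above RSL3 replicate 2. The means were 23.6 ± 14.2 CPM and 44.0 ± 19.0 CPM (SD, n = 3 each). The log2 fold change of -0.90 (SE 0.451) did not pass the test, with an unadjusted edgeR p of 0.0732 and an adjusted p of 0.237. Without RSL3 + IFN-γ replicate 3 the values were -1.39 for miR-450a-5p and -1.53 for miR-450b-5p. The replicate number as a block left both uncalled, with edgeR adjusted p-values of 0.059 for miR-450a-5p and 0.122 for miR-450b-5p.

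miR-542-3p, the most abundant member and number 166 of 1596 by mean level, had 162, 163 and 149 CPM (670, 956 and 921 reads) in the RSL3 + IFN-γ libraries and 198, 223 and 162 CPM (1004, 999 and 926 reads) in the RSL3 libraries. RSL3 replicate 3 lay among the RSL3 + IFN-γ libraries, and the other RSL3 libraries lay above them. The means were 158 ± 8.08 CPM and 195 ± 30.8 CPM (SD, n = 3 each), with a log2 fold change of -0.30 (SE 0.221, edgeR adjusted p = 0.418). Its partner strand miR-542-5p had 7, 16 and 6 reads in the RSL3 + IFN-γ libraries and 9, 5 and 7 reads in the RSL3 libraries, and did not pass the filter. That is 1.80 ± 0.887 CPM and 1.37 ± 0.353 CPM (SD, n = 3 each), at which a difference was not detectable.

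With TMM scaling the near hairpins gave log2 fold changes smaller than their SE. miR-503-5p, number 273 by mean level, had 42.1, 55.0 and 78.1 CPM (174, 322 and 484 reads) in the RSL3 + IFN-γ libraries and 47.6, 43.6 and 63.5 CPM (241, 195 and 363 reads) in the RSL3 libraries. Replicate 3 was the highest library in both groups, and the ranges lay largely over one another. The means of 58.4 ± 18.3 CPM and 51.6 ± 10.6 CPM (SD, n = 3 each) gave a log2 fold change of 0.18 (SE 0.288, edgeR adjusted p = 0.722).

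miR-424-5p, the member with the full miR-15/16 seed, had 10.6, 11.6 and 15.8 CPM (44, 68 and 98 reads) in the RSL3 + IFN-γ libraries and 14.4, 6.71 and 13.8 CPM (73, 30 and 79 reads) in the RSL3 libraries. Only RSL3 replicate 2 was lower than every RSL3 + IFN-γ library. The means were 12.7 ± 2.76 CPM and 11.6 ± 4.29 CPM (SD, n = 3 each) and the log2 fold change was 0.12 (SE 0.357, edgeR adjusted p = 0.855).

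The other strand of that hairpin, miR-424-3p, had 11.1, 9.74 and 18.2 CPM (46, 57 and 113 reads) in the RSL3 + IFN-γ libraries and 16.2, 7.38 and 19.3 CPM (82, 33 and 110 reads) in the RSL3 libraries. RSL3 replicate 2 was again the lowest library. The means were 13.0 ± 4.56 CPM and 14.3 ± 6.16 CPM (SD, n = 3 each), with a log2 fold change of -0.13 (SE 0.400, edgeR adjusted p = 0.857). By mean level over all libraries the order was miR-542-3p, miR-503-5p, miR-450b-5p, miR-450a-5p, miR-424-3p, miR-424-5p and miR-542-5p, and the neighbours miR-450b-5p and miR-450a-5p (33.8 and 31.6 CPM) and miR-424-3p and miR-424-5p (13.7 and 12.2 CPM) did not differ beyond their spread. By range over the 6 libraries only miR-542-3p at the top and miR-542-5p at the bottom stood clear of their neighbour.

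**Figure D2:**
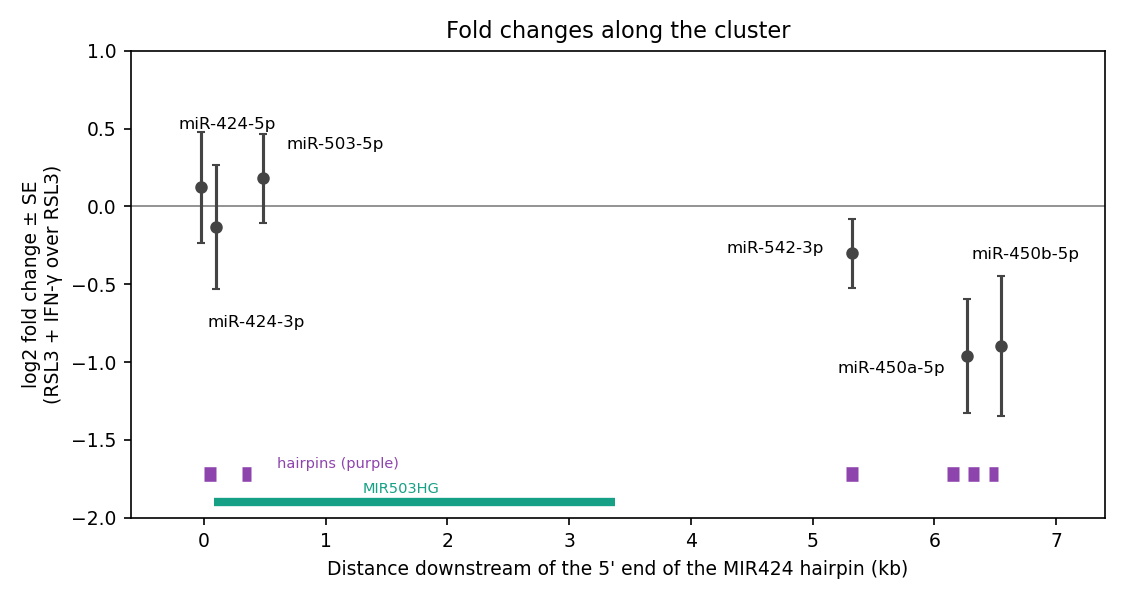
Log2 fold change of RSL3 + IFN-γ over RSL3 (points, with SE from edgeR, n = 3 libraries per group) against the place of each hairpin in kb downstream of the MIR424 5′ end, with hairpins in purple and MIR503HG in green. Points of neighbouring hairpins are moved apart sideways; the 2 MIR450 products lie at -0.96 and -0.90 at the far end, while the products of MIR424 and MIR503 lie between -0.13 and 0.18, and none was called.

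As a share of all counts, without TMM scaling, the cluster as a whole did not differ between the groups beyond their spread. Its 7 products made up 245, 363 and 385 reads per 1000000 in the RSL3 + IFN-γ libraries (exact 95% intervals 231 to 261, 345 to 381 and 369 to 402) and 328, 302 and 320 reads per 1000000 in the RSL3 libraries (314 to 343, 287 to 318 and 307 to 334). RSL3 + IFN-γ replicate 1 was lowest and the other RSL3 + IFN-γ libraries were highest. The means were 331 ± 75.0 and 317 ± 13.4 reads per 1000000 (SD, n = 3 each), with an exact permutation p of 1.0 for a log2 difference of 0.04 (two-sided, smallest possible 0.1). These intervals cover counting error only. The share divides by the summed deposited counts, which were 1.09 to 1.16 times the authors' totals in RSL3 + IFN-γ libraries. In RSL3 libraries they were 1.03 to 1.13 times those totals, and the effect on the share was not tested. Within the cluster miR-542-3p took 55.6 ± 9.61% and 54.6 ± 11.8% of the reads and miR-503-5p 19.9 ± 3.63% and 14.3 ± 2.67%. miR-450a-5p took 7.22 ± 2.04% and 11.5 ± 3.48% and miR-450b-5p 7.85 ± 3.60% and 12.0 ± 4.58%, each with RSL3 + IFN-γ first (SD, n = 3 each).

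Ratios between members do not depend on the scaling of a library, and 6 of them were compared. The far MIR450 products set against the near products, that is miR-450a-5p plus miR-450b-5p over miR-424-5p plus miR-424-3p plus miR-503-5p, had values of 0.512, 0.399 and 0.641 in the RSL3 + IFN-γ libraries and 1.32, 0.845 and 1.09 in the RSL3 libraries. Every RSL3 + IFN-γ library was below every RSL3 library, and this was the 1 of the 6 ratios whose groups did not overlap. The difference was -1.07 on the log2 scale (SE 0.272), a ratio 0.476 times as high, and was between -1.24 and -0.90 when any single library was left out. With 3 libraries against 3 the two-sided exact permutation p of 0.1 is the smallest possible, and it was 0.45 after Benjamini-Hochberg adjustment over the 6 ratios. Among all 286903 pairs of tested miRNAs, 29.1% had ratios whose groups did not overlap. A count of 1 in 6 is below that share, so the count says nothing particular to the cluster.

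The sums behind this ratio were 32.6, 30.4 and 71.8 CPM of MIR450 products in the RSL3 + IFN-γ libraries and 103, 48.8 and 105 CPM in the RSL3 libraries. The near products summed to 63.8, 76.4 and 112 CPM in the RSL3 + IFN-γ libraries and 78.1, 57.7 and 96.6 CPM in the RSL3 libraries. Neither sum separated the groups by itself. Set against their nearer neighbour miR-542-3p, the MIR450 products had ratios of 0.202, 0.187 and 0.483 in the RSL3 + IFN-γ libraries and 0.522, 0.219 and 0.649 in the RSL3 libraries, which overlapped (log2 difference -0.67, SE 0.651, exact permutation p = 0.2, adjusted 0.45). Both ratios of the MIR450 products were lower with RSL3 + IFN-γ in 3 of 3 same-numbered pairs, for which a sign-flip test cannot give a p under 0.25. The ratios share their numerator, so they are not separate observations. How many ratios between all tested miRNAs were lower in every pair was not counted.

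In the deposited counts, the ratios between the closest relatives overlapped between the groups. miR-450b-5p over miR-450a-5p was 1.05, 0.874 and 1.25 in the RSL3 + IFN-γ libraries and 1.31, 0.864 and 0.939 in the RSL3 libraries (log2 difference 0.03, SE 0.235, exact permutation p = 0.9, adjusted 1.0). miR-503-5p over miR-424-5p, the 2 carriers of AGCAGC, was 3.92, 4.71 and 4.92 in the RSL3 + IFN-γ libraries and 3.29, 6.41 and 4.57 in the RSL3 libraries (log2 difference -0.03, SE 0.296, exact permutation p = 1.0, adjusted 1.0). No p-value of this test can go under 0.1, so these do not show that the ratios were equal.

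**Figure D3:**
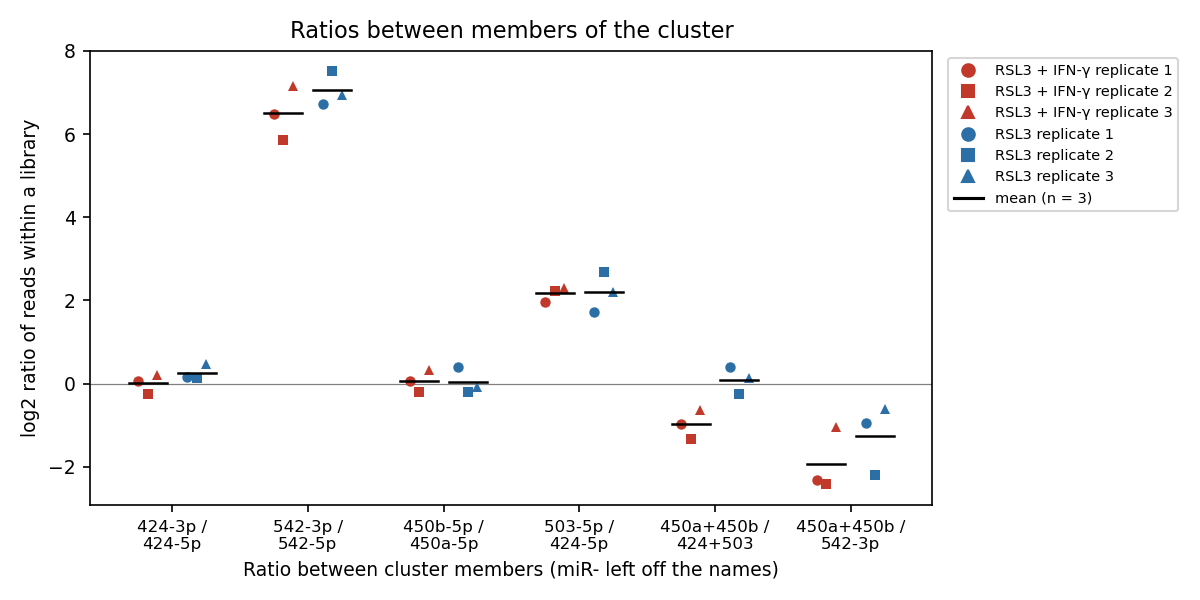
Log2 ratios between cluster members within each library (0.5 reads added to each side), with RSL3 + IFN-γ left of RSL3 and the mean of each group (n = 3) as a line. Only the ratio of miR-450a-5p plus miR-450b-5p to the MIR424 and MIR503 products separates the groups (log2 difference -1.07, exact permutation p = 0.1, the smallest possible).

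The balance of the arms differed strongly between hairpins. Between treatments, limma could test the arm ratio of MIR424 only, and did not call it. The other hairpins of the cluster had too few reads of an arm for limma. Exact permutation tests were made for MIR424 and MIR542. With 3 libraries against 3 their smallest possible p is 0.1, so they could not pass the threshold for calls. The arm ratios of MIR503 and the MIR450 hairpins were not tested between treatments. These tests do not show that the balance stayed equal. The hairpins of MIR424 and MIR450B are shown, with both arms in capitals, because they lie at opposite ends of the cluster and differ in that balance, MIR424 giving both strands and MIR450B almost only one. They are RefSeq sequences (GRCh38.p14), minus strand, at chrX:134546614-134546711 and chrX:134540185-134540262.
MIR424: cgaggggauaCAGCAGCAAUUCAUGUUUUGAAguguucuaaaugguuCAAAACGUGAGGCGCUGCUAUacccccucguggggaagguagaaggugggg
MIR450B: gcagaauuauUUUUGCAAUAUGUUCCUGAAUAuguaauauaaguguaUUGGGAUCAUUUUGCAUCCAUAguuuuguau

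MIR424 gave both strands in near equal amounts, with 50.1 ± 4.07% of its reads from the 3p arm in the RSL3 + IFN-γ libraries and 54.5 ± 3.22% in the RSL3 libraries (SD, n = 3 each). The log2 ratio of miR-424-3p over miR-424-5p differed by -0.25 (SE 0.173, exact permutation p = 0.3, adjusted 0.45). It was lower in 3 of 3 pairs, and how many of all ratios were so was not counted. For the same ratio, limma over 181 hairpins gave an adjusted p of 0.682. limma called 0 of these 181 hairpins (0.0%), with 35 at an unadjusted p under 0.05. MIR450B gave almost only its 5p strand, since miR-450b-3p had 0, 0 and 5 reads in the RSL3 + IFN-γ libraries and 0 in each RSL3 library, out of 404 and 689 reads of the hairpin. MIR503 was also read from the 5p arm, with 2.70 ± 1.35% and 1.50 ± 1.33% of reads from 3p, and MIR542 from the 3p arm, with 98.9 ± 0.504% and 99.3 ± 0.198%, in the RSL3 + IFN-γ and RSL3 libraries (SD, n = 3 each).

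The ratio of miR-542-3p over miR-542-5p had a log2 difference of -0.56 (SE 0.439, exact permutation p = 0.3, adjusted 0.45) and rests on 5 to 16 reads of the 5p strand per library. The passenger strands miR-503-3p (1 to 10 reads per library), miR-450a-1-3p (0 to 7 reads) and miR-450a-2-3p (5 to 11 reads) stayed under the filter. The 3p strands of MIR450A1 and MIR450A2 differ in sequence, unlike their 5p strands, and reads of both were present.

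Fold changes in these libraries moved with the GC content of the miRNA, and the MIR450 products are among the poorest in GC. Over the 679 tested miRNAs with a RefSeq sequence the median log2 fold change was -0.87 below 35% GC (66 miRNAs), -0.29 at 35 to 45% (144), -0.05 at 45 to 55% (253) and 0.36 at 55% or more (216). A smooth trend through all of them ran at -0.82 for the GC content of miR-450b-5p and -0.65 for that of miR-450a-5p, which left -0.07 and -0.32 of their fold changes. With the GC trend of each library as an offset, edgeR gave -0.06 (adjusted p = 0.938) for miR-450b-5p and -0.29 (adjusted p = 0.594) for miR-450a-5p. What sets this trend was not tested.

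miR-424-5p lay on the other side, with a fold change of 0.12 where the trend ran at -0.48, and the offset gave it 0.64 (edgeR adjusted p = 0.263). The GC-rich miR-503-5p and miR-424-3p had fold changes of 0.18 and -0.13 where the trend ran at 0.17 and 0.07. With the offset they had 0.01 and -0.21. With the GC trend taken out, an alternative chosen after seeing the data, the ratio of MIR450 to near products differed by -0.28 on the log2 scale in place of -1.07. The libraries then stood at -0.77, -0.52 and -0.47 in the RSL3 + IFN-γ group and -0.26, -0.27 and -0.39 in the RSL3 group, still without overlap. The same step moved miR-424-3p over miR-424-5p to -0.81 and miR-503-5p over miR-424-5p to -0.67, both then without overlap. Of the 4 ratios that could be computed this way 3 did not overlap, against 25.9% of the 230181 pairs of tested miRNAs treated alike. The 3 share members, so they are not separate observations.

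**Figure D4:**
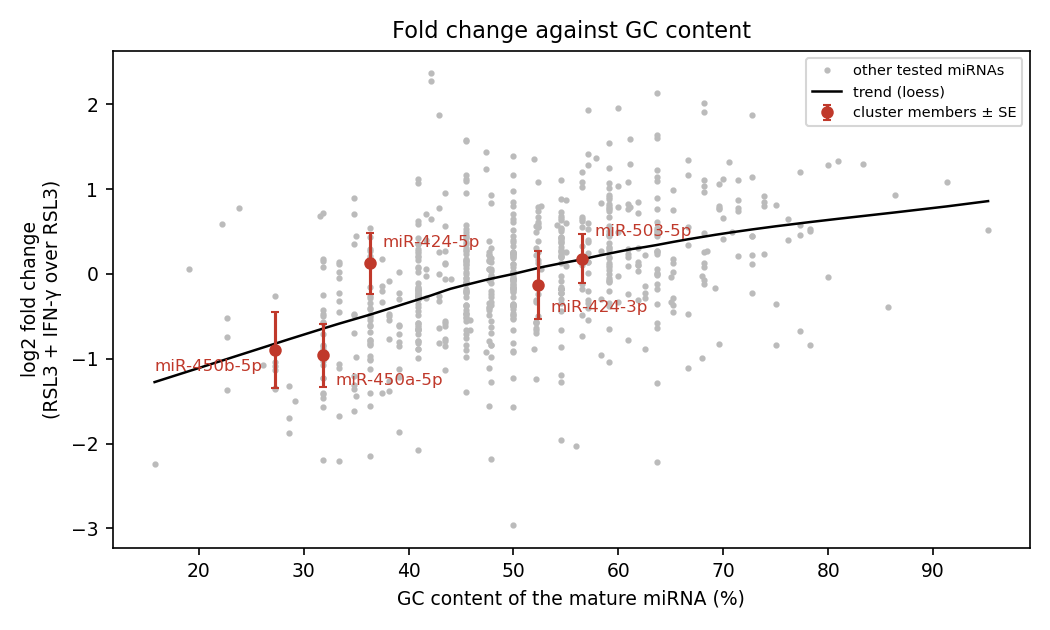
Log2 fold change of RSL3 + IFN-γ over RSL3 against the GC content (%) of the mature miRNA for the 679 tested miRNAs with a RefSeq sequence (grey), with a loess trend (line) and 5 cluster members with their SE (red). The 2 MIR450 products lie near the low-GC end of the trend. Measured from the trend, miR-503-5p lies at 0.01, miR-424-3p at -0.20 and miR-424-5p at 0.60.

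The strands of MIR424, and the 5p strands of the MIR450 hairpins, varied together across the 6 libraries, while miR-542-3p lay further from both pairs. The likeness of 2 miRNAs is given as the SD of their log2 ratio over the 6 libraries, which is small when they move in parallel, among 472 other miRNAs with at least 10 CPM. The SD was 0.235 between miR-424-5p and miR-424-3p, which came 9th and 4th in each other's order. miR-503-5p was at 0.324 from miR-424-5p and 0.405 from miR-424-3p, places 27 and 33 in their orders. Between miR-450a-5p and miR-450b-5p the SD was 0.258, and they came 5th and 3rd in each other's order. miR-542-3p, of the far group by position, was at 0.735 from miR-450a-5p and 0.878 from miR-450b-5p. These were places 377 and 416 in its own order, both above its median of 0.466 with all 472. In the orders of miR-450a-5p and miR-450b-5p it came 196th and 207th, below their medians of 0.812 and 0.926. Its SD was 0.615 with miR-424-5p and 0.699 with miR-424-3p, places 236 and 247 in their orders.

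Across the gap between MIR503 and MIR542 the values differed by strand. miR-424-5p was at 0.669 from miR-450a-5p and 0.706 from miR-450b-5p (places 280 and 304 in its order), above its median of 0.617. miR-424-3p was at 0.518 and 0.538 from them (places 77 and 94), below its median of 0.684. In the order of miR-450b-5p, miR-424-3p came 33rd and miR-424-5p 84th. This is a description of 6 libraries of unlike depth, in which the groups, the replicates and GC content all enter.

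The miRNAs outside the cluster that were most alike lay at unlike levels. They were let-7a-5p (SD 0.179), miR-26b-5p and let-7e-5p for miR-424-5p, and miR-92a-3p (0.188), let-7a-3p and miR-107 for miR-424-3p. For miR-503-5p they were miR-28-5p (0.110), miR-92b-3p and miR-128-3p, and for miR-542-3p miR-1305 (0.0793), miR-6720-3p and miR-504-5p. The MIR450 products had a pair in common, miR-1278 and miR-301a-5p, beside miR-660-5p for miR-450a-5p and miR-9-3p (0.141) for miR-450b-5p, with miR-1278 at 0.143 from miR-450a-5p.

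The other carriers of AGCAGC at bases 2 to 7 were followed because miR-424-5p and miR-503-5p act beside them on shared targets. Of the 6 listed, 5 were tested, and 0 rose and 0 fell by edgeR, DESeq2 or limma. These tools called 36, 95 and 51 of all 758 miRNAs. At an unadjusted p under 0.05 edgeR gave 1, DESeq2 0 and limma 1, against 196, 195 and 200 of all 758 miRNAs. Their median log2 fold change was -0.26. miR-16-5p, the most abundant, had 488 ± 54.9 CPM in RSL3 + IFN-γ libraries and 698 ± 174 CPM in RSL3 libraries (SD, n = 3 each; log2 fold change -0.52, SE 0.252, edgeR adjusted p = 0.224). miR-195-5p had 5.73 ± 1.62 CPM and 10.1 ± 2.73 CPM (SD, n = 3 each), without overlap, as for 29.8% of tested miRNAs (log2 fold change -0.82, SE 0.364, edgeR adjusted p = 0.186). The log2 fold change was -0.26 for miR-15a-5p, -0.18 for miR-15b-5p and 0.16 for miR-497-5p, and miR-6838-5p was under the filter.

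Among all reads with this seed the cluster was a small part. miR-424-5p and miR-503-5p together made up 7.37, 7.21 and 11.5% of the family's CPM in the RSL3 + IFN-γ libraries and 5.17, 6.24 and 6.55% in the RSL3 libraries. These do not overlap, and no test was made of them. Ratios between 2 single miRNAs, an unlike measure, did not overlap for 29.1% of all tested pairs. How often shares of a summed family do so was not counted. miR-16-5p alone held 57.9 to 61.6% in the RSL3 + IFN-γ libraries and 61.7 to 68.2% in the RSL3 libraries. Its shares also do not overlap, by a narrow margin, and are parts of the same sum.

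A second X-linked cluster, miR-106a-363, lies further along the same strand, with MIR106A 376433 bases downstream of the 5′ end of MIR424. Of its 7 listed products 4 had a row in the table and 2 were tested. edgeR, DESeq2 and limma called 0 of them, against 36, 95 and 51 of all 758 miRNAs. Both had an unadjusted p under 0.05 by each tool, as had 196, 195 and 200 of all 758 miRNAs by edgeR, DESeq2 and limma. miR-106a-5p, a miR-17 family member, had 23.2 ± 4.74 CPM in RSL3 + IFN-γ libraries and 39.3 ± 11.3 CPM in RSL3 libraries (SD, n = 3 each), without overlap, as for 29.8% of tested miRNAs (log2 fold change -0.76, SE 0.298, edgeR adjusted p = 0.143). miR-20b-5p of the same family had 15.2 ± 3.06 CPM and 27.2 ± 10.9 CPM (SD, n = 3 each; log2 fold change -0.84, SE 0.336, edgeR adjusted p = 0.150). Both have near-identical relatives on other chromosomes, so their counts are uncertain. miR-363-3p and miR-18b-5p were under the filter.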

How the data were processed

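Small RNA of 6 libraries was sequenced, 3 of the RSL3 + IFN-γ group and 3 of the RSL3 group, grouped by treatment as labelled. The labels name a small RNA library kit and the study's methods a directional RNA kit. Bowtie 1.1.1, bcl2fastq, edgeR and the GRCh38 build stand in the submitters' processing notes. The sources used here give no miRBase release. The authors deposited raw read counts per mature miRNA and a normalized signal, in which each library's counts are multiplied by 1 constant. The authors' log2 fold change, fold change and p-value columns were not used, and 0 columns of sample values were left out.

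The main test was edgeR 4.0.16 under R 4.3.3 (quasi-likelihood, TMM, minimum count 10, minimum total 15, two-sided), which kept 758 of 1596 miRNAs, with Benjamini-Hochberg adjustment and calls under 0.05. DESeq2 1.42.0 and limma 3.58.1 (log2 of CPM plus 5) were alternatives. SEs of fold changes are the fold change over the root of edgeR's F. Ratios within a library had 0.5 reads added and exact permutation tests. Arm ratios were tested by limma over hairpins with at least 10 reads of each arm on average. GC trends are loess fits (span 0.75) on RefSeq mature sequences, which 1425 of 1596 miRNAs had. miR-542-3p was therefore not in the GC fits. Scripts were tested on simulated data.

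Same-numbered libraries deviated together from their group means (correlations 0.227, 0.217 and 0.207, each above the bound of 0.1), so the numbers were taken as pairs. Deviations from a mean of 3 libraries depend on one another, so these correlations are weak ground for pairing. No source used here says what they stand for, and the main fit has no block. The members, the lists and the ratios were chosen with earlier results of these data known. The miRNAs named are all members, the other arms of their hairpins, the AGCAGC seed family, up to 4 of the neighbouring X-linked cluster by mean CPM, the marker lists, and for each member of at least 10 CPM the 3 other miRNAs with the smallest SD of the log2 ratio.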

Additional observations from a re-analysis of the deposited data

How the results depend on the processing

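The count over all miRNAs, 36 called, moved to 71 with library totals (60 higher, 11 lower), 95 with DESeq2 (52 and 43), 106 without a filter (50 and 56), 82 with the replicate block (39 and 43) and 14 with the replicate block and GC offset (9 and 5). The GC offset alone gave 24 (16 and 8), and the main split was 19 and 17. Leaving out a library gave 0 to 95 calls, with 0 without RSL3 replicate 1 (edgeR; 124 at an unadjusted p under 0.05), 6 without RSL3 + IFN-γ replicate 2, 7 without RSL3 + IFN-γ replicate 3, 22 without RSL3 replicate 3, 55 without RSL3 replicate 2 and 95 without RSL3 + IFN-γ replicate 1. The cluster kept 0 calls in 15 of 16 alternatives, and without a filter had 1, miR-450a-5p (-0.96). The replicate block changed no call of a member, of the seed family or of the neighbouring cluster.

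Library totals moved the median of all miRNAs to 0.33 and upper-quartile factors to -0.13, from -0.04. Library totals reversed miR-424-3p to 0.24, miR-542-3p to 0.068, miR-15a-5p to 0.11 and miR-15b-5p to 0.24, of which all are below the 0.33. They raised miR-424-5p to 0.51 and miR-503-5p to 0.57, both above it. The GC offset reversed miR-15a-5p to 0.044 and miR-15b-5p to 0.16, and with the replicate block to 0.063 and 0.11, where miR-503-5p was -0.011. Leaving out a library gave -0.17 to 0.30 for miR-424-5p, -0.48 to 0.11 for miR-424-3p, -0.10 to 0.35 for miR-503-5p and -0.11 to 0.31 for miR-497-5p. For the ratios it gave -0.093 to 0.21 for miR-450b-5p over miR-450a-5p and -0.27 to 0.21 for miR-503-5p over miR-424-5p, and for the share of all reads -0.086 to 0.24. That share was -0.093 with miR-21-5p left out of the total. miR-450a-5p and miR-450b-5p were negative in all 16 alternatives, from -1.39 to -0.76 and from -1.53 to -0.64 over single libraries left out.

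Groups of 3 libraries cannot give an exact permutation p under 0.1. Members at 30 to 113 reads, such as the MIR424 products, carry large counting error, and miR-542-5p and the 4 passenger strands had too few reads for a test.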
